A study of Mus musculus with 5 samples.

Results

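Enzymes that turn arachidonic acid into leukotrienes and prostaglandins, or that make platelet activating factor (PAF), were compared between leukaemic and normal myeloid cells of the mouse. The 10 genes were Pla2g4a, Alox5, Alox5ap, Lta4h, Ltc4s, Alox15, Ptgs1, Ptgs2, Ptges and Lpcat2, and all 10 were found by name among the 34240 features of the table. They were chosen by function with their AML and normal values in view, so the differences between these groups are a description and carry no p-value. RNA had been sequenced from 5 libraries of BALB/c mice aged 10 to 12 months. The 2 AML libraries held cells of an acute myeloid leukaemia (AML) induced by CNTRL-FGFR1, which joins CNTRL to the receptor tyrosine kinase FGFR1, sorted as Mac+Gr1+B220+ and taken from bone marrow and spleen. The 3 normal libraries held Gr1+Mac1+ myeloid cells sorted from bone marrow of mice without leukaemia. B220 and spleen occur in the AML group alone, so sort and tissue cannot be told apart from leukaemia. Nothing in the labels ties each library to its own mouse, and p-values then measure only the spread between these libraries, which may be technical.

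Mediator synthesis starts when cytosolic phospholipase A2 frees arachidonic acid from membrane phospholipid. 5-lipoxygenase, helped by its activating protein FLAP, converts it to leukotriene A4, from which leukotriene A4 hydrolase makes leukotriene B4, an attractant of neutrophils, and leukotriene C4 synthase makes the cysteinyl leukotrienes. The cyclooxygenases COX-1, mostly constitutive, and COX-2, mostly inducible, make prostaglandin H2 instead, which terminal synthases turn into prostaglandins and thromboxane. PAF arises when an acetyltransferase acts on the lysophospholipid left by phospholipase A2. Neutrophils are known as a source of leukotriene B4 and PAF.

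Values are RPKM (reads per kilobase of exon, corrected for the depth of the library), a scale corrected for transcript length on which levels of different genes can be set side by side. RPKM totals were 524000 and 638584 in AML libraries and ran from 472234 to 615921 in normal libraries. Steps between low values gave depths of about 33.25, 76.5 and 101.5 M reads for normal libraries 1, 2 and 3, while the depth of the AML libraries could not be recovered. All 8 neutrophil markers examined were transcribed in both groups, with sums of 172536 and 238935 RPKM in AML libraries against 189145, 233323 and 296731 RPKM in normal libraries. Of the 10166 genes at 1 RPKM or more in at least 2 libraries, 34.8% were higher in both AML libraries than in all normal libraries. By the same rule 22.1% were lower. None of the 8 markers was higher in this way, and 4 were lower, namely Ly6g, Ltf, Lcn2 and Cxcr2. Of these, Cxcr2 stood at 41.4 and 32.4 RPKM in AML libraries, against 234.9, 216.5 and 423.8 RPKM in normal libraries. None of the 5 B cell markers separated the groups, and they summed to 10.1 and 12.1 RPKM in AML libraries against 11.3, 16.2 and 10.7 RPKM in normal libraries. The 5 T cell markers summed to 340 and 337 RPKM in AML libraries against 44.6, 47.8 and 41.2 RPKM in normal libraries. Of these Cd3e and Cd3g were higher in AML and Cd3d lower. Lck and Cd2 overlapped between the groups and stayed under 1 RPKM in every library, at 0.4 and 0.4 RPKM and at 0.41 and 0.58 RPKM in AML libraries. In bulk samples, fewer cells of a type and less RNA per cell cannot be told apart.

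The enzymes differed in both directions. Leukotriene A4 hydrolase (Lta4h), COX-1 (Ptgs1) and the inducible prostaglandin E synthase (Ptges) were higher in AML cells, at 3.79, 3.69 and 2.75 times the normal mean. 5-lipoxygenase (Alox5) was 2.25-fold, the PAF-forming enzyme Lpcat2 20.7-fold and COX-2 (Ptgs2) about 89.7-fold lower. Cytosolic phospholipase A2 (Pla2g4a), FLAP (Alox5ap) and 12/15-lipoxygenase (Alox15) overlapped between the groups. Of the 10 genes, 9 reached at least 1 RPKM in at least 2 libraries and were fitted with all other such genes in limma on log2(RPKM + 1). Of these 9, 3 were called higher and 3 lower at a Benjamini-Hochberg adjusted p under 0.05, where 19.3% of all 10166 tested genes were called higher and 11.8% lower. Both AML libraries lay above all normal libraries for 4 of the 10, among them Ltc4s, which was not fitted, and below them for 3. Of the 9 fitted genes, 3 lay above and 3 below, where 34.8% and 22.1% of tested genes did so. Since the genes were selected on this contrast, nothing is read from these counts. The median log2 fold change of the 9 fitted genes was -0.06, and that of all tested genes 0.12.

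**Figure D1:**
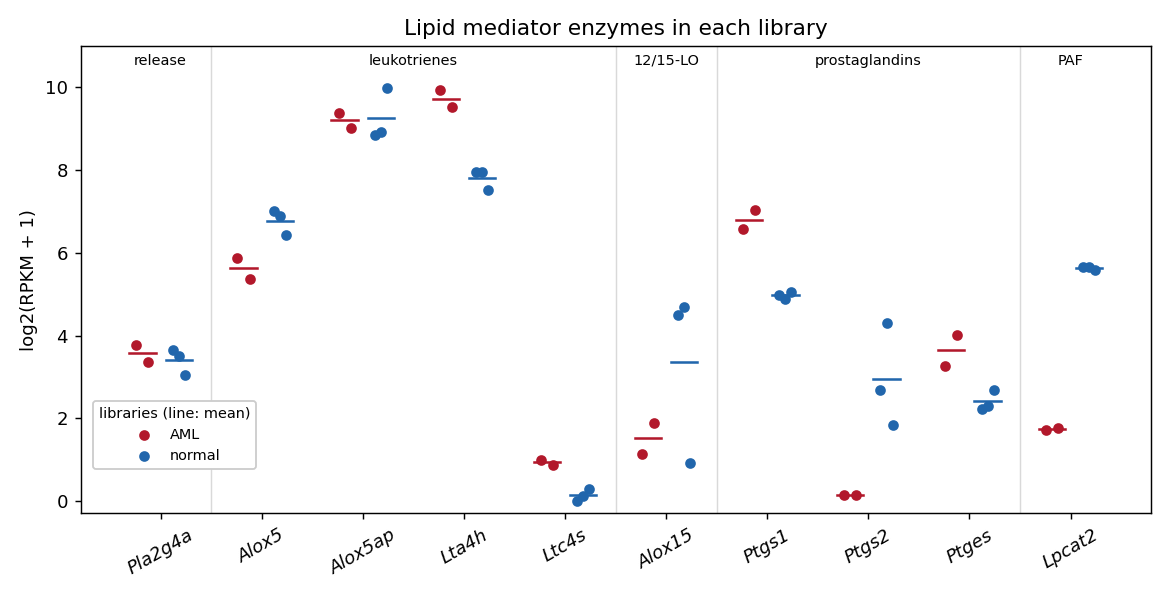
Level of each of the 10 enzymes as log2(RPKM + 1), with 1 point per library, AML (n = 2) left of normal (n = 3) for each gene and a line at the group mean. Lta4h, Ptgs1, Ptges and Ltc4s stand higher in both AML libraries, Alox5, Ptgs2 and Lpcat2 lower, and Alox15 is high in normal libraries 1 and 2 (21.5 and 25 RPKM) and low in normal library 3 (0.9 RPKM).

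Promoters are shown for 4 enzymes whose groups did not overlap: Lta4h and Ptgs1, the most strongly transcribed of those higher in AML cells, and Ptgs2 and Lpcat2, with the largest ratios of means among those lower. Each is the 250 bases before the start in RefSeq, GRCm38.p6, plus strand: chr10:93453146-93453395 for Lta4h, chr2:36230176-36230425 for Ptgs1, chr1:150099781-150100030 for Ptgs2 and chr8:92855083-92855332 for Lpcat2. Capitals mark matches, on either strand, to any of 5 motifs, none overlapping another: the C/EBP core TTGCNNAA, the ETS core GAGGAA, the GC box GGGCGG, the TATA box TATAAA and the cyclic AMP response element core TGACGT.
Lta4h: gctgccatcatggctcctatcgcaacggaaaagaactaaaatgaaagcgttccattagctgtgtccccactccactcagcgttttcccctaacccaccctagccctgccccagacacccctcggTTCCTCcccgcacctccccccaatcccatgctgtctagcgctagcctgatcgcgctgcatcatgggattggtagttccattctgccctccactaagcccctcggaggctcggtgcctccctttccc
Ptgs1: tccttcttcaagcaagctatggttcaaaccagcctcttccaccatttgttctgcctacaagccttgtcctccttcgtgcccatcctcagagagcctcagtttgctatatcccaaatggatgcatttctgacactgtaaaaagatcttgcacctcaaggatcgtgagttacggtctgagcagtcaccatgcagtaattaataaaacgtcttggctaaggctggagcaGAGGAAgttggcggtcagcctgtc
Ptgs2: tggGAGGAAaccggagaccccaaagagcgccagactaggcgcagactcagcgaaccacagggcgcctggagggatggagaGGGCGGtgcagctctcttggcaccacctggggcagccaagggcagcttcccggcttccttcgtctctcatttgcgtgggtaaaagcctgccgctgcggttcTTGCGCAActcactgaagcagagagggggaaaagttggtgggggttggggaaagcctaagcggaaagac
Lpcat2: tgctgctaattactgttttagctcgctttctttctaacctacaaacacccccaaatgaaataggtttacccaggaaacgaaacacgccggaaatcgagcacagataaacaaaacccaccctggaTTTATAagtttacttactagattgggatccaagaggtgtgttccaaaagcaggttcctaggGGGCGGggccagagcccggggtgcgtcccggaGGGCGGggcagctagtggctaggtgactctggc

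Lta4h held an ETS core at -126 to -121 and Ptgs1 one at -24 to -19, counted back from -1 at the base before the start. Ptgs2 held an ETS core at -247 to -242, a GC box at -170 to -165 and a C/EBP core at -69 to -62. Lpcat2 held a TATA box match at -126 to -121 and GC boxes at -65 to -60 and -33 to -28. Promoters were matched for 8 of the 10 genes, among which the ETS core occurred in 5, the GC box in 4, the TATA box in 2, the C/EBP core in Ptgs2 alone and the response element core in none. Of 32536 mouse promoter windows of this length, 23.4% held the ETS core, 33% the GC box, 12.3% the TATA box, 9.57% the C/EBP core and 6.5% the response element core. A match describes letters in this window and is not a site.

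Among the 10 enzymes, the one that releases arachidonate overlapped between the groups. Other phospholipases A2, some of which did not overlap, are given below. Pla2g4a, encoding cytosolic phospholipase A2 alpha (ENSMUSG00000056220, chromosome 1, 151676748 to 151808420, mm9), stood at 12.73 and 9.35 RPKM in AML libraries, against 11.5, 10.35 and 7.33 RPKM in normal libraries. The highest value was in AML library 1 and the lowest in normal library 3. Means were 11 ± 2.39 RPKM (SD, n = 2) in AML and 9.73 ± 2.15 RPKM (SD, n = 3) in normal cells, with a log2 fold change of 0.17 (SE 0.27).

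In the leukotriene branch, the enzyme that forms leukotriene A4 was lower in AML cells and the one that hydrolyses it was higher. Alox5, encoding 5-lipoxygenase (ENSMUSG00000025701, chromosome 6, 116360095 to 116411196, mm9), stood at 58.1 and 40.1 RPKM in AML libraries, against 128.7, 117.2 and 84.8 RPKM in normal libraries. Both AML values lay under all normal values, of which that of normal library 3 was the nearest. Means were 49.1 ± 12.7 RPKM (SD, n = 2) in AML and 110 ± 22.8 RPKM (SD, n = 3) in normal cells, with a log2 fold change of -1.15 (SE 0.29).

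Lta4h, encoding leukotriene A4 hydrolase, which is also an aminopeptidase (ENSMUSG00000015889, chromosome 10, 92916141 to 92947641, mm9), stood at 976.12 and 732.4 RPKM in AML libraries, against 246.68, 247.34 and 181.98 RPKM in normal libraries. The groups were far apart, and the lower AML value was well above the highest normal one. Means were 854 ± 172 RPKM (SD, n = 2) in AML and 225 ± 37.5 RPKM (SD, n = 3) in normal cells, with a log2 fold change of 1.92 (SE 0.28). The ratio of Lta4h to Alox5 RPKM within a library was 16.8 and 18.3 in AML, against 1.92, 2.11 and 2.15 in normal libraries. This ratio varied little inside each group.

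FLAP was abundant in every library. Alox5ap, encoding this membrane protein that presents arachidonate to 5-lipoxygenase (ENSMUSG00000060063, chromosome 5, 150076634 to 150099621, mm9), stood at 665.32 and 516.5 RPKM in AML libraries, against 461.05, 485.58 and 1013.4 RPKM in normal libraries. Both AML values lay between normal library 3, the highest of all, and the other normal libraries. The log2 fold change of -0.06 (SE 0.40) was 0.31 without normal library 3 and 0.13 without AML library 2. The ratio of Alox5ap to Alox5 RPKM was 11.5 and 12.9 in AML libraries, against 3.58, 4.14 and 12 in normal libraries, so normal library 3 lay between the AML libraries here.

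In RPKM, Lta4h ranked first and Alox5ap second among the 10 enzymes in both AML libraries, whereas Alox5ap ranked first and Lta4h second in all 3 normal libraries. Lta4h made up 53.7% and 50.5% of the summed RPKM of the 10 in AML libraries, against 25.7%, 25.1% and 13.2% in normal libraries. Alox5ap made up 36.6% and 35.6% in AML libraries, against 48.1%, 49.2% and 73.7% in normal libraries. Next in both AML libraries came Ptgs1 and then Alox5, and next in all 3 normal libraries came Alox5, then Lpcat2, then Ptgs1. In AML libraries Pla2g4a and Ptges exchanged places between the libraries, as did Lpcat2 and Alox15, so the order inside these pairs was not set. Likewise Pla2g4a, Ptgs2, Ptges and Alox15 differed in rank between normal libraries.

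Ltc4s, encoding leukotriene C4 synthase (ENSMUSG00000020377, chromosome 11, 50049971 to 50052118, mm9), was barely transcribed and was the gene that did not pass the filter. It stood at 1 and 0.84 RPKM in AML libraries, against 0, 0.09 and 0.23 RPKM in normal libraries. Both AML values exceeded all normal values, which at the depths above amounted to about 0, 5.07 and 17.2 reads. Means were 0.92 ± 0.113 RPKM (SD, n = 2) in AML and 0.107 ± 0.116 RPKM (SD, n = 3) in normal cells. Its exons overlap those of Gm16641 on the other strand, and the TruSeq kit named in the labels is not stated to mark strand, so reads of the pair cannot be told apart.

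Alox15 differed more among normal libraries than between the groups. This gene of the 12/15-lipoxygenase, known from mouse eosinophils and resident macrophages (ENSMUSG00000018924, chromosome 11, 70157654 to 70165533, mm9), stood at 1.2 and 2.7 RPKM in AML libraries, against 21.5, 25 and 0.9 RPKM in normal libraries. Normal library 3 was lower than either AML library, and normal libraries 1 and 2 were far higher. The log2 fold change of -1.86 (SE 1.08) was -3.08 without normal library 3, where the gene was called lower, and 0.59 without normal libraries 1 and 2.

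Markers of eosinophils and erythroid cells were also higher in normal libraries 1 and 2 than in normal library 3. Eosinophil markers summed to 106 and 209 RPKM in AML libraries, against 628, 634 and 5.74 RPKM in normal libraries, and all 5 were higher in both normal libraries 1 and 2 than in normal library 3. Of these, Il5ra was listed at 0 in AML library 1 and in normal library 3. Erythroid markers summed to 114 and 125 RPKM in AML libraries, against 1502, 966 and 104 RPKM in normal libraries, with 4 of 6 higher in both normal libraries 1 and 2 than in normal library 3. Macrophage and monocyte markers summed to 35.1 and 40.6 RPKM in AML libraries, against 375, 302 and 245 RPKM in normal libraries, with 9 of 11 higher in both normal libraries 1 and 2 than in normal library 3. Their sum in normal library 3 was above both AML sums, and Ccr2 alone held 162.4 RPKM of it. Csf1r, Emr1, Siglec1, Ccr2 and Ly86 were higher in normal library 3 than in both AML libraries. Vcam1, C1qb, Mrc1 and Cd5l were lower there than in both, as Alox15 was. Of these, Vcam1 stood at 2.1 RPKM in normal library 3, against 8.4 and 5.9 RPKM in AML libraries. All 6 mast cell and basophil markers and 7 of 8 megakaryocyte and platelet markers were also higher in both normal libraries 1 and 2 than in normal library 3. The part of these cells in the Alox15 values was not tested.

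**Figure D2:**
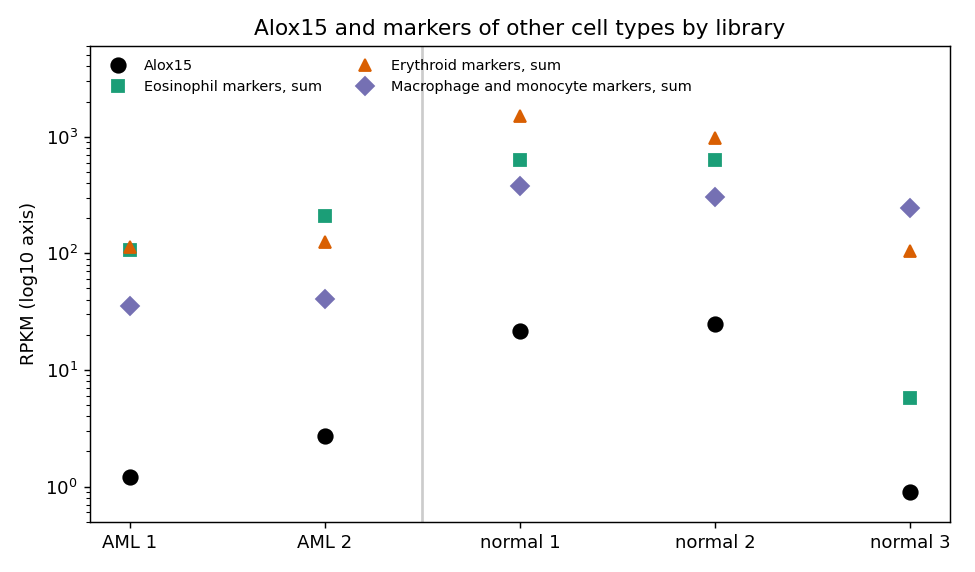
RPKM on a log10 axis of Alox15 and of the summed eosinophil, erythroid, and macrophage and monocyte markers in each library, AML left of normal. Alox15, the eosinophil sum and the erythroid sum are high in normal libraries 1 and 2. They are low in normal library 3 (0.9, 5.74 and 104 RPKM). The macrophage and monocyte sum of normal library 3 (245 RPKM) stays above both AML sums, with Ccr2 holding 162.4 RPKM of it.

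The cyclooxygenases differed in opposite directions. Ptgs1, encoding COX-1 (ENSMUSG00000047250, chromosome 2, 36085946 to 36107792, mm9), stood at 93.68 and 130.52 RPKM in AML libraries, against 30.33, 28.39 and 32.37 RPKM in normal libraries. The groups were well apart and the normal values close together. Means were 112 ± 26 RPKM (SD, n = 2) in AML and 30.4 ± 1.99 RPKM (SD, n = 3) in normal cells, with a log2 fold change of 1.83 (SE 0.25).

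Ptgs2, encoding COX-2 (ENSMUSG00000032487, chromosome 1, 151947254 to 151955140, mm9), was listed at 0.1 RPKM in both AML libraries, against 5.4, 18.9 and 2.6 RPKM in normal libraries. The normal libraries spread 7.27-fold among themselves, with normal library 2 highest, and all lay above the AML libraries. The log2 fold change on the log2(RPKM + 1) scale was -2.81 (SE 0.64), a scale that understates the change of a gene this low. Its values were deposited in steps of 0.1, so 0.1 RPKM can stand for 0.05 to 0.15 RPKM, and the ratio of means of 89.7 could lie between 59.8 and 179. Ptgs1 made up 99.9% of the summed Ptgs1 and Ptgs2 RPKM in both AML libraries, against 84.9%, 60% and 92.6% in normal libraries.

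Markers of platelets and mast cells, which are known to use cyclooxygenase, are given beside these values. The 8 megakaryocyte and platelet markers summed to 5 and 7.65 RPKM in AML libraries, against 16.2, 16.5 and 6.24 RPKM in normal libraries. Of these, 6 were under 1 RPKM in both AML libraries, Gp9 was higher in AML libraries and Itga2b lower. Pf4 was listed at 0 in AML library 1 and Ppbp in AML library 2. Mast cell and basophil markers summed to 15.6 and 33.9 RPKM in AML libraries, against 27, 37.5 and 21 RPKM in normal libraries. Of these 6, Prss34, Gata2 and Fcer1a were lower in both AML libraries than in all normal libraries and none was higher. Among all tested genes 22.1% were lower and 34.8% higher in this way. Mcpt8 alone held 12.11 and 30.36 RPKM of the sum in AML libraries. The part of any of these cells in the Ptgs1, Ptgs2 and Ptges values was not tested.

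Ptges, encoding the inducible microsomal prostaglandin E synthase, which often works with COX-2 (ENSMUSG00000050737, chromosome 2, 30744991 to 30785383, mm9), stood at 8.66 and 15.24 RPKM in AML libraries, against 3.68, 3.95 and 5.43 RPKM in normal libraries. Both AML values lay above all normal values, and AML library 2 was the highest. Means were 11.9 ± 4.65 RPKM (SD, n = 2) in AML and 4.35 ± 0.942 RPKM (SD, n = 3) in normal cells, with a log2 fold change of 1.24 (SE 0.30). Ptges made up 14.1% and 16.3% of the summed RPKM of Ptges, Ptges2 and Ptges3 in AML libraries, against 9.68%, 8.94% and 7.97% in normal libraries. That sum overlapped between the groups, at 61.2 and 93.2 RPKM in AML libraries against 38, 44.2 and 68.1 RPKM in normal libraries.

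In PAF synthesis, Lpcat2 was lower in AML cells by a similar amount against every normal library. Lpcat2, the acyltransferase of inflammatory cells that can form PAF from lyso-PAF (ENSMUSG00000033192, chromosome 8, 95379249 to 95443178, mm9), stood at 2.3 and 2.4 RPKM in AML libraries, against 49.6, 49.6 and 46.7 RPKM in normal libraries. Values hardly varied inside either group. Means were 2.35 ± 0.0707 RPKM (SD, n = 2) in AML and 48.6 ± 1.67 RPKM (SD, n = 3) in normal cells, with a log2 fold change of -3.89 (SE 0.20). Normal library 3 differed from the mean of the other normal libraries by -0.09 on the log2 scale for Lpcat2, where it differed by -3.67 for Alox15 and -1.65 for Ptgs2. The sum of macrophage and monocyte markers, given above, was lower in both AML libraries than in all normal libraries. Of the 11 markers, 5 were lower in this way and none higher, where 22.1% and 34.8% of all tested genes were. The others overlapped, among them Vcam1 at 8.4 and 5.9 RPKM in AML libraries, against 16, 12.4 and 2.1 RPKM in normal libraries. Ccr2 stood at 8.6 and 9.8 RPKM in AML libraries, against 194.2, 154 and 162.4 RPKM in normal libraries, and Ly86 at 4.6 and 7.4 RPKM in AML libraries, against 50.6, 51.7 and 39.4 RPKM in normal libraries. The part of these cells in the Lpcat2 values was not tested.

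The share of Lpcat2 among related acyltransferases was compared as well. Lpcat2 made up 2.45% and 1.89% of the summed RPKM of Lpcat1, Lpcat2 and Lpcat4 in AML libraries, against 41.8%, 47.2% and 37.5% in normal libraries. The sum overlapped between the groups, at 93.9 and 127 RPKM in AML libraries against 119, 105 and 124 RPKM in normal libraries. Lpcat1 overlapped between the groups and was not called, at 13.8 and 6.3 RPKM in AML libraries against 34.4, 26.2 and 8 RPKM in normal libraries. Lpcat4 stood at 77.8 and 118.02 RPKM in AML libraries, against 34.74, 29.37 and 69.79 RPKM in normal libraries, but missed the threshold (limma, Benjamini-Hochberg adjusted p = 0.066).

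**Figure D3:**
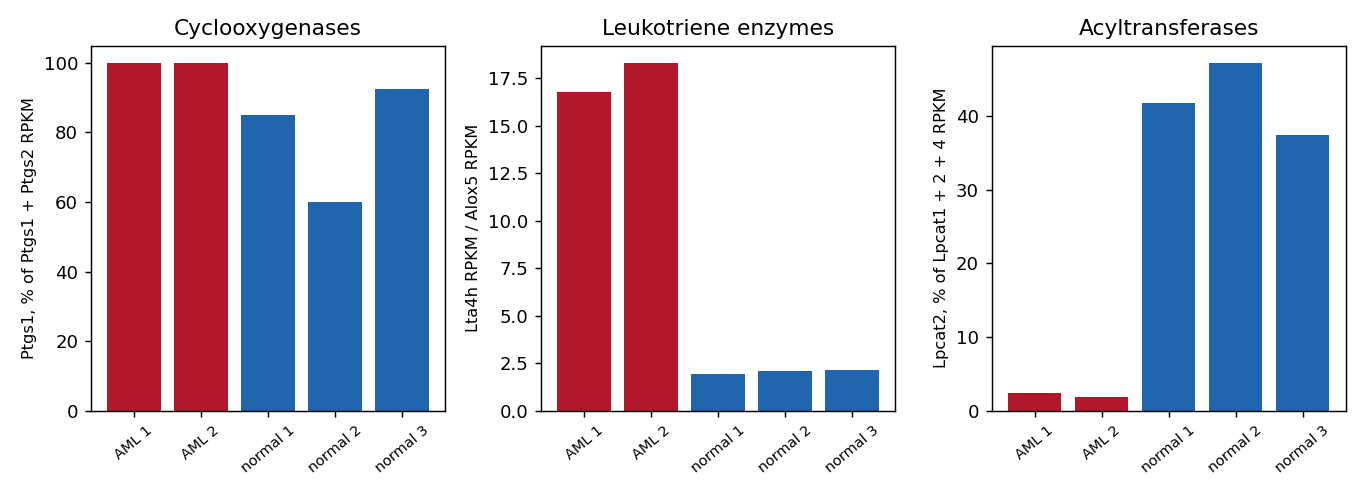
Within-library ratios of RPKM with AML left of normal: the share of Ptgs1 in Ptgs1 and Ptgs2, the ratio of Lta4h to Alox5, and the share of Lpcat2 in Lpcat1, Lpcat2 and Lpcat4. The Lta4h to Alox5 ratio is 16.8 and 18.3 in AML against 1.92 to 2.15 in normal libraries, and the Lpcat2 share is 2.45% and 1.89% in AML against 37.5% to 47.2% in normal libraries.

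**Figure D4:**
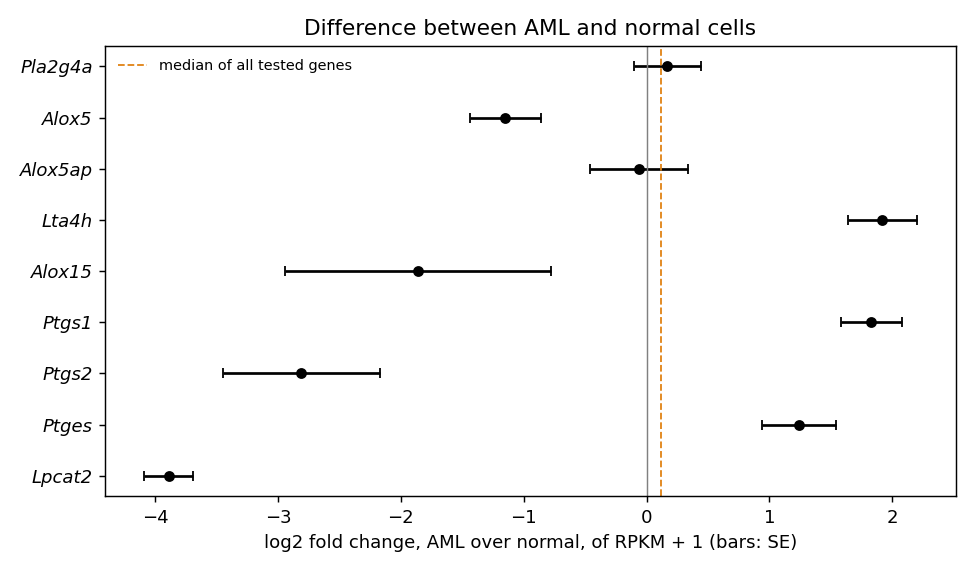
Log2 fold change of RPKM + 1, AML over normal, for the 9 fitted enzymes, with bars of 1 SE from limma and a dashed line at the median of all tested genes (0.12). Lpcat2 (-3.89) and Lta4h (1.92) lie at the ends, and Alox15 has the widest SE (1.08).

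Some enzymes were not called in every alternative fit. Fits that leave out a library have fewer libraries to judge by, and a lost call did not always go with a smaller log2 fold change. As the genes were selected on this contrast, refits of the same libraries only describe the calls and lend them no support. Lta4h, Ptgs1 and Lpcat2 were called in all 14 alternative fits, with log2 fold changes of 1.63 to 2.21, 1.58 to 2.07 and -4.31 to -3.83. Alox5 was not called without AML library 1 (-1.41), AML library 2 (-0.89), normal library 1 (-1.03) or normal library 2 (-1.10). Ptgs2 was not called without AML library 1 or without AML library 2 (-2.81 in both). Ptges was not called without AML library 2 (0.87), normal library 1 (1.15) or normal library 2 (1.19). Without a filter on low values neither Alox5 nor Ptgs2 was called. Without normal libraries 1 and 2 together, neither Alox5 (-0.80) nor Ptges (0.96) was called, and Ptgs2 did not pass the filter.

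Genes most like an enzyme in level were found by the smallest root mean square difference of log2(RPKM + 1) over the 5 libraries. They were Prkar1a (0.18), Ccpg1 (0.20) and Lamp2 (0.20) for Alox5, and Arpc3 (0.26), Cyba (0.30) and Coro1a (0.33) for Alox5ap. For Ptgs1 they were Ptpn7 (0.22), Mcee (0.24) and Slc43a3 (0.25). The nearest genes were farther off for Alox15, among them Ifi44 (0.58) and Slc4a1 (0.62), an anion exchanger of erythrocytes, and for Ptgs2, namely Arl4c (0.53), Pmaip1 (0.54) and Ccdc88a (0.54).

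Other genes of these pathways, 75 in 7 lists by role, moved in both directions. Of the 52 that passed the filter, 11 rose and 10 fell in AML cells and 31 passed in neither direction (limma, with Benjamini-Hochberg adjustment over all tested genes and a threshold of 0.05). Over all tested genes 19.3% were called higher and 11.8% lower, shares that stand beside the count of each list below. The lists were made with earlier results of these data known. Their counts and the adjusted p-values of their genes are therefore a description. Their median log2 fold change was -0.13, and that of all tested genes 0.12.

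Of 8 tested genes of arachidonate release and recycling, 4 rose and 1 fell (median log2 fold change 0.67), where 19.3% and 11.8% of all tested genes did. Pla2g12a, a secreted phospholipase A2, stood at 16.78 and 19.15 RPKM in AML libraries, against 0.76, 1.08 and 1.13 RPKM in normal libraries, an 18.1-fold rise (log2 fold change 3.25, SE 0.21, limma adjusted p = 0.00031). Pla2g6, a calcium-independent phospholipase A2, rose 7.48-fold (log2 fold change 2.26, SE 0.39, limma adjusted p = 0.0071). Pla2g4c, a relative of Pla2g4a, rose 5.69-fold (limma adjusted p = 0.009), and Lpcat3, which returns arachidonate to phospholipid, 1.91-fold (limma adjusted p = 0.022). The call of Lpcat3 was not followed singly through the alternative fits. Mboat7, which returns arachidonate to phosphatidylinositol, fell 2.4-fold (limma adjusted p = 0.045), and its exons overlap those of Tsen34 on the other strand, as those of Lpcat3 overlap Emg1. The call of Pla2g6 was lost without AML library 2 (limma adjusted p = 0.07), and that of Mboat7 without any one library other than normal library 3 (limma adjusted p = 0.06 to 0.17) and without a filter (0.091). That of Pla2g4c was lost without normal libraries 1 and 2 (limma adjusted p = 0.11), and this gene did not pass the filter without AML library 1 or 2. None of the 5 other lipoxygenases passed the filter, and Alox12e, the highest of them, was listed at 0 and 0.1 RPKM in AML libraries against 0.7, 0.6 and 0 RPKM in normal libraries.

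Of 11 tested genes of leukotriene conversion, export and breakdown, 3 rose and 2 fell (median log2 fold change -0.34). Mgst2, a microsomal glutathione transferase whose human counterpart can make leukotriene C4, stood at 346.62 and 603.2 RPKM in AML libraries, against 87.16, 105.65 and 132.88 RPKM in normal libraries (log2 fold change 2.09, SE 0.33, limma adjusted p = 0.0052). In RPKM it was far above Ltc4s in every library. Abcc1, an exporter of leukotriene C4, rose 2.9-fold (limma adjusted p = 0.01), and Ptgr1, which inactivates leukotriene B4, 2.54-fold (limma adjusted p = 0.0076). Cyp4f18, the mouse neutrophil enzyme that hydroxylates leukotriene B4, stood at 14.5 and 18.01 RPKM in AML libraries, against 51.59, 56.96 and 51.05 RPKM in normal libraries (log2 fold change -1.66, SE 0.22, limma adjusted p = 0.0028). Its exons overlap those of Zfp961 on the other strand. Mgst3 fell 2.14-fold (limma adjusted p = 0.021), a call not followed singly through the alternative fits. Calls were lost without AML library 1 or 2 for Abcc1 (limma adjusted p = 0.069 and 0.061) and Ptgr1 (limma adjusted p = 0.056 and 0.06), and without AML library 2 for Mgst2 (limma adjusted p = 0.053). That of Ptgr1 was also lost without normal libraries 1 and 2 (limma adjusted p = 0.092).

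Of 8 tested prostanoid synthase and breakdown genes, 1 rose and 3 fell (median log2 fold change -0.16). Tbxas1, thromboxane A synthase, stood at 20.67 and 18.25 RPKM in AML libraries, against 7.1, 7.27 and 3.94 RPKM in normal libraries (log2 fold change 1.56, SE 0.29, limma adjusted p = 0.009). Hpgd, which inactivates prostaglandins, fell to 0.1 RPKM in both AML libraries, against 4.4, 4.2 and 0.6 RPKM in normal libraries (limma adjusted p = 0.047). Cbr1, a carbonyl reductase that can act on prostaglandins, fell 4.93-fold (limma adjusted p = 0.018), and Akr1b3, an aldose reductase, 2.89-fold (limma adjusted p = 0.025). Calls were lost without AML library 1 or 2 for Tbxas1 (limma adjusted p = 0.064 and 0.069) and Hpgd (limma adjusted p = 0.16 and 0.21). That of Cbr1 was lost without AML library 1, AML library 2 or normal library 2 (limma adjusted p = 0.15, 0.084 and 0.06), and that of Akr1b3 without AML library 2 or normal library 2 (limma adjusted p = 0.16 and 0.083). Without a filter the calls of Hpgd and Akr1b3 were lost (limma adjusted p = 0.11 and 0.057), at equal totals that of Hpgd (limma adjusted p = 0.062), and under quantile normalization that of Cbr1 (limma adjusted p = 0.053). Hpgd did not pass the filter without normal library 1 or 2.

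Of 9 tested genes of PAF synthesis and hydrolysis, 2 rose and 2 fell (median log2 fold change -0.28). Pla2g7, the secreted PAF acetylhydrolase, stood at 9.1 and 16 RPKM in AML libraries, against 124.7, 129.9 and 139.8 RPKM in normal libraries (log2 fold change -3.34, SE 0.28, limma adjusted p = 0.00054). Its exons overlap those of 1700071M16Rik on the other strand. Pafah2, an intracellular PAF acetylhydrolase, stood at 27.83 and 39.13 RPKM in AML libraries, against 8.37, 9.31 and 10.73 RPKM in normal libraries (log2 fold change 1.71, SE 0.25, limma adjusted p = 0.0035). Chpt1, a cholinephosphotransferase of the last step of de novo synthesis, rose 3.44-fold (limma adjusted p = 0.0073), and its exons overlap those of Sycp3 on the other strand. Pafah1b1, better known as the dynein regulator Lis1, fell 2.02-fold (limma adjusted p = 0.048). The call of Chpt1 was lost without AML library 1 or 2 (limma adjusted p = 0.057 in both), and that of Pafah1b1 without any one library other than normal library 3 (limma adjusted p = 0.051 to 0.3), without a filter (0.092) and without normal libraries 1 and 2 (0.35).

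Of 9 tested receptors, 1 rose and 1 fell (median log2 fold change 0.09). Cysltr1, a receptor of cysteinyl leukotrienes, stood at 0.4 and 0.7 RPKM in AML libraries, against 2.9, 3.3 and 3 RPKM in normal libraries (log2 fold change -1.40, SE 0.19, limma adjusted p = 0.003). Ptger4, the EP4 receptor of prostaglandin E2, stood at 15.25 and 14.92 RPKM in AML libraries, against 9.01, 7.18 and 9.01 RPKM in normal libraries (log2 fold change 0.78, SE 0.22, limma adjusted p = 0.035), and its exons overlap those of Ttc33 and Gm15937. That call was lost without any one library other than normal library 3 (limma adjusted p = 0.086 to 0.16), under 3 other scalings (limma adjusted p = 0.054, 0.059 and 0.12), without a filter (0.054) and without normal libraries 1 and 2 (0.36). Ltb4r1, the leukotriene B4 receptor of neutrophils, stood at 158.18 and 153.09 RPKM in AML libraries, against 105.29, 92.93 and 123.97 RPKM in normal libraries (limma adjusted p = 0.13). Ptafr, the PAF receptor, stood at 10.3 and 4 RPKM in AML libraries, against 46, 33.3 and 11.3 RPKM in normal libraries (limma adjusted p = 0.058). Neither passed the test.

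Of 7 kinases and partners of 5-lipoxygenase and cytosolic phospholipase A2, none rose and 1 fell (median log2 fold change -0.45). Cotl1, whose human product binds 5-lipoxygenase, stood at 254.2 and 177.7 RPKM in AML libraries, against 411.7, 362.8 and 381.7 RPKM in normal libraries (log2 fold change -0.85, SE 0.27, limma adjusted p = 0.049). That call was lost without any one library other than normal library 3 (limma adjusted p = 0.07 to 0.27), without a filter (0.076) and without normal libraries 1 and 2 (0.26). Mapkapk2, a kinase of 5-lipoxygenase, had a log2 fold change of -0.51 (limma adjusted p = 0.31).

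**Figure D5:**
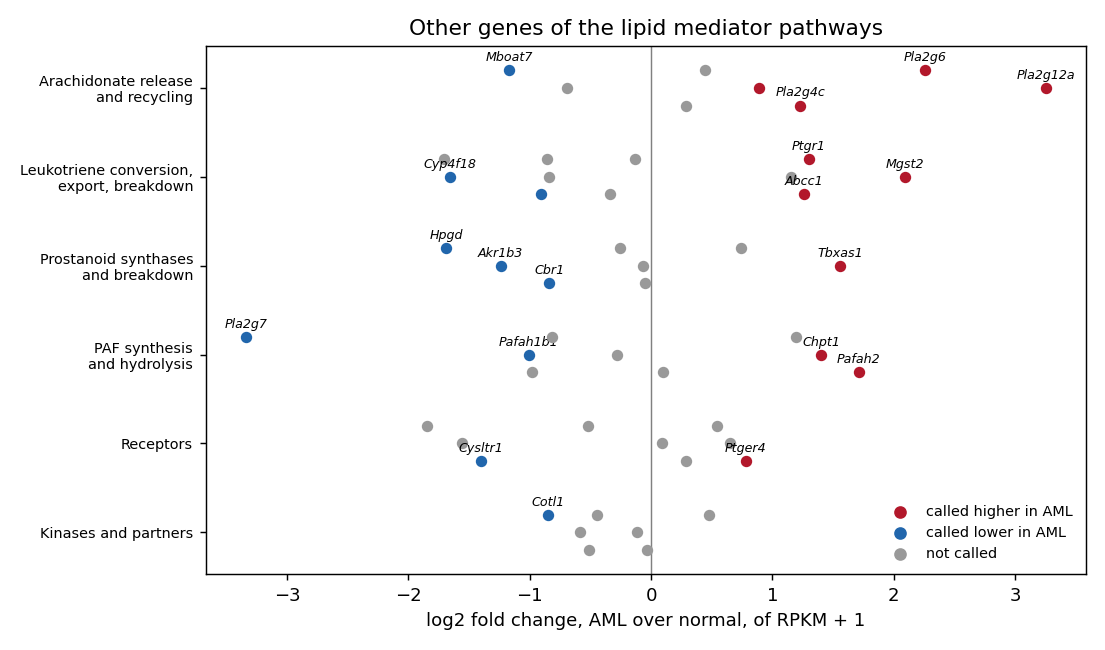
Log2 fold change of RPKM + 1, AML over normal, for the 52 tested genes of the other pathway lists by role, with called genes in colour (11 higher, 10 lower) and those that did not pass in grey. Pla2g12a (3.25) and Pla2g7 (-3.34) lie at the ends.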

How the data were processed

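Total RNA of sorted cells was made into libraries with an Illumina TruSeq RNA kit and sequenced, as stated in the labels' protocols. The deposited values were taken to be RPKM made by the authors, a unit inferred since the sum of RPKM times exon kilobases was close to constant, at 1059377 to 1124787 per library. The submitters' processing notes name mm9. Aligner, counter and annotation were not given in the sources used here. Coordinates are of mm9, and promoters of GRCm38.p6. Values were deposited with 1 or 2 decimals, and of tested genes 11.9% of the 4749 with 1 decimal, but 94.5% of the 5417 with 2, were higher in AML. Alox5, Alox15, Ptgs2 and Lpcat2 have 1 decimal, so their low values are coarser. All enzymes called lower (Alox5, Ptgs2 and Lpcat2) thus have 1 decimal, and all called higher (Lta4h, Ptgs1 and Ptges) have 2. Why the number of decimals goes with the direction was not tested.

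Of 34240 features, 10166 reached 1 RPKM in 2 or more libraries and were compared as log2(RPKM + 1) with limma 3.58.1 in R 4.3.3 (variance trend, robust, two-sided, Benjamini-Hochberg, threshold 0.05), 2 AML against 3 normal libraries. Means, SD and ratios are of RPKM. The fit was tried on simulated data with the same spread for every gene. Spread in the real libraries differed between genes, so that trial is no check of the calls given here. Depth of normal libraries came from steps in low values, of which 73.9%, 67.8% and 69.4% were whole reads at the best depth (27.7%, 34% and 41.2% by chance). Members and lists were chosen with earlier results of these data known. Named were all members, up to 4 called genes per list by size of change (or the highest if none was called), the 3 genes nearest to Alox5, Alox5ap, Alox15, Ptgs1 and Ptgs2 (1 is not reported here), and markers. Lpcat1, Lpcat3, Mgst3, Lpcat4, Ltb4r1, Ptafr and Mapkapk2 were named after their values were seen. The 14 alternatives changed pseudocount, filter, scaling, variance model, rounding or libraries.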

Additional observations from a re-analysis of the deposited data

How the results depend on the processing

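Among 14 alternatives, 312 single-gene values kept direction and side of the threshold, 62 kept direction but lost the call, 1 gained it and 5 reversed. The reversals were Alox5ap without AML library 2 (0.13) and without normal library 3 (0.31), Alox15 without normal libraries 1 and 2 (0.59), and Pla2g4a at equal totals without S100a8 and S100a9 (-0.06) and without AML library 1 (-0.03). Leaving out 1 library gave -0.26 to 0.31 for Alox5ap and -0.03 to 0.38 for Pla2g4a. Equal totals moved the median of all genes to -0.11, from 0.12, and left 1251 genes called higher. Without normal libraries 1 and 2, 864 genes were called higher and 471 lower, 1 enzyme was lower, and calls numbered 3 in arachidonate release, 2 in prostanoids, 1 in receptors and 0 in kinases and partners. Without a filter, 4 enzymes were called higher, among them the barely transcribed Ltc4s, and 1 enzyme was lower. In that fit 1 receptor and 0 kinases or partners were called. A filter at 5 RPKM left 2 prostanoid genes and 1 receptor, and upper quartile scaling and equal totals left 1 receptor each. Leaving out 1 library gave 326 to 2757 genes higher and 348 to 2142 lower, 2 to 3 enzymes higher and 1 to 4 lower. Calls then ranged from 1 to 6 for arachidonate release, 0 to 0 for other lipoxygenases, 1 to 7 for leukotriene conversion, 0 to 5 for prostanoids, 2 to 7 for PAF, 1 to 6 for receptors and 0 to 2 for kinases and partners. Where 1 AML library remained, it was assumed to vary like the normal ones. Without normal libraries 1 and 2, normal library 3 was in turn assumed to vary like the AML ones. Under the filter, Ptgs2, Hpgd, Cbr1 and Cysltr1 were not tested without normal libraries 1 and 2, Pla2g4c without either AML library, Hpgd without normal library 1 or 2, and Pla2g4c, Hpgd, Cbr1 and Cysltr1 at 5 RPKM. The causes were not tested. No paired analysis was possible because no label ties an AML library to a normal one.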

Other observations

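Several genes of the conversion and receptor lists had their highest value of the 5 libraries in normal library 3. Mgst1, Cyp4f16, Dpep3, Ptger1 and Tbxa2r did so with smaller differences from normal libraries 1 and 2 in log2(RPKM + 1). The 4 with the largest differences are given here and were picked after their values were seen. Ggt1, a gamma-glutamyltransferase, stood at 0.44 and 0.58 RPKM in AML libraries, against 1.17, 1.12 and 24.89 RPKM in normal libraries. Dpep2, a dipeptidase that converts leukotriene D4, stood at 1.8 and 3.8 RPKM in AML libraries, against 1.6, 2.5 and 30 RPKM in normal libraries, and its exons overlap those of Dus2l on the other strand. Ggt5, which converts leukotriene C4, stood at 2.5 and 3.8 RPKM in AML libraries, against 3.9, 4.8 and 13.4 RPKM in normal libraries. Fpr2, a formyl peptide receptor that also binds lipoxin A4, stood at 130.1 and 242.8 RPKM in AML libraries, against 314.7, 383.4 and 1200.9 RPKM in normal libraries, and shares exons with Fpr3. None of the 4 passed the test between AML and normal cells (limma adjusted p = 0.24, 0.54, 0.2 and 0.091).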
